A study of Schizosaccharomyces pombe with 4 samples.

Results

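The ends of chromosome III of the fission yeast Schizosaccharomyces pombe carry the tandem repeats of ribosomal DNA (rDNA), and the probes that tile both ends are described here. A probe belongs to an end when its position lies within 50000 bp of the outermost position tiled on that chromosome. Of 41551 non-control probes, 276 met this rule, 137 at the left end and 139 at the right, and 272 of them were used, the others having an outlier flag on at least 1 array. The rule uses positions and probe names and no measured value. Probes whose name ends in f or m, a suffix the labels do not explain, were taken as repeat probes and set against the other, unique probes farther inward.

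The study measured newly deposited histone H3 by chromatin immunoprecipitation on 2-colour tiling arrays, with 60-mer probes every 300 bp. All cells carried the genotype written H3T7 cdc25-22, in which an estradiol-activated Cre recombinase exchanges H3-HA for H3-T7, together with tetO-ade6+ and a TetR-Clr4 fusion under a thiamine-repressible promoter. The 4 groups crossed wild type (wt) and clr3-CDx2 with TetR-Clr4 tethering OFF and ON, with 1 array each. All 4 cultures were pre-grown for 20 generations at 26 °C. ON cells had no thiamine or tetracycline, and OFF cells received 5 µg/ml thiamine and 2.5 µg/ml tetracycline. Tethering and these additions to the medium therefore cannot be told apart. Every culture was arrested in G2/M at 36 °C for 4 h, given 1 µM estradiol for 2 h and fixed, so H3-T7 in its chromatin was made after the swap. Neither the meaning of CDx2 nor the place of tetO-ade6+ is stated in the labels. Cy5 carried the DNA precipitated with the T7 antibody and Cy3 the input DNA. A level below is log2 of Cy5 over Cy3, centred on the median of its array, and a Cy5 or Cy3 value is the log2 signal of that channel centred on its own array median. Median Cy3 signals per array ran from 7065.5 to 13925 and median Cy5 signals from 4442 to 7687.5, no array had more than 5 spots that failed to clear background, and 0 were saturated. Errors are SDs over probes, because each group had 1 array and therefore no replicate spread. In such bulk samples the share of cells with new H3 and the amount per cell cannot be told apart, and at a tandem repeat the same holds for the number of units and the amount per unit.

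In this yeast RNA polymerase I transcribes a precursor of 18S, 5.8S and 28S rRNA from each repeat unit, and an intergenic spacer with replication fork barriers separates the units. Clr4 methylates a lysine of H3 to build heterochromatin. Clr3 removes acetyl groups from histones, as the catalytic part of SHREC, and is known to hold histone turnover low in heterochromatin. Some rDNA units are known to be packaged as heterochromatin, in which H3 is exchanged slowly.

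The outermost repeat probes divide into stretches that the reference assembly ASM294v3 defines. In that assembly the rDNA occupies bases 1 to 24570 at the left end and 2439555 to 2452883 at the right end of III, with a unit of 10870 bp and with the rRNA genes transcribed outward from the chromosome's middle. Next to it lies a flank shared by both ends as an inverted copy, which aligned at 97.9% identity over 8112 bp (left 24639 to 32741, right 2439475 to 2431401). The array's own positions belong to a build that the sources used here do not name. They were placed by shifting each chromosome arm until the mean Cy3 signal of its unique probes best followed the GC content of assembly tiles. On III the best correlation was 0.255 on the left arm and 0.226 on the right, against at most 0.165 and 0.16 at distant shifts. Shifts fitted to blocks of these arms ran from -120 to 180 bp and from -1020 to -860 bp. Places near a boundary are uncertain to that extent. By this placement 77 repeat probes lie in the rDNA (57 left, 20 right), 49 in the shared flank (22 and 27), and 33 in other repeats (17 and 16), while 41 probes on the left and 76 on the right are unique. All 77 rDNA tiles have a copy of at least 95% identity at the opposite end, as have 36 of the 49 flank tiles, counted as 17 on the left and 19 on the right. Left and right probes of these stretches therefore read the same DNA and are not independent of each other.

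Annotated places of the rDNA unit and the inner edges of the rDNA are shown as sequence from the RefSeq assembly. The 5.8S gene is given whole, to show that its 3 annotated copies at the ends are identical in sequence, and the next sequences show the start of an 18S gene and the end of a 28S gene, with the gene in capitals. The last pair shows the inner edge of the rDNA at each end, read from the rDNA inward with rDNA in capitals, and the first 73 bases of both edges are the same.

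5.8S rRNA gene: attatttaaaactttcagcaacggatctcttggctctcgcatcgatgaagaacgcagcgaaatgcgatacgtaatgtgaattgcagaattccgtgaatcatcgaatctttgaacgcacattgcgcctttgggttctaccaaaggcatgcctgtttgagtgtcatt
start of 18S: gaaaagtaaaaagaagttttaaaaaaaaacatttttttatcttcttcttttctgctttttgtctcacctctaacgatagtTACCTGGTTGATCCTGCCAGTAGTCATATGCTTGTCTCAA
end of 28S: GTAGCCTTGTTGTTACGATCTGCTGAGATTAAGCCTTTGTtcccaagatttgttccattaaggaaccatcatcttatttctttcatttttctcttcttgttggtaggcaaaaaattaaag
left edge: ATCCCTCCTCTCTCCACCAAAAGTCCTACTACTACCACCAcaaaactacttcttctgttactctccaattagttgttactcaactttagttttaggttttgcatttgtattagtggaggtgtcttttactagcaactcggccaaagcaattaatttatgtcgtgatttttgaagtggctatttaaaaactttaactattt
right edge: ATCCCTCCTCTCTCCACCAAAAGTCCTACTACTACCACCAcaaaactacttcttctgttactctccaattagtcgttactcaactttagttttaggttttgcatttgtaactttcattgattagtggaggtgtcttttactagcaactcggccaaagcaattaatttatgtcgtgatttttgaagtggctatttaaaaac

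These lie on III of ASM294v3 at chr3:9842-10006, chr3:12221-12340 and chr3:5977-6096 on the minus strand, chr3:24531-24730 on the plus strand and chr3:2439395-2439594 on the minus strand. The stretch at the start of 18S occurs 5 times on III and the stretch at the end of 28S occurs 3 times. By this annotation the upstream side of the 18S gene is the part of the unit that meets the flank at both ends.

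The H3-T7 level was lowest in the rDNA, higher across the shared flank and close to the array median at the unique probes. On the left, the 57 rDNA probes averaged -2.02 (SD 0.55) in wt OFF, -2.15 (SD 0.69) in clr3-CDx2 OFF, -0.80 (SD 0.45) in wt ON and -1.32 (SD 0.40) in clr3-CDx2 ON. The 20 rDNA probes on the right averaged -2.06, -2.15, -0.81 and -1.31 in the same order. Both OFF arrays were thus about 4-fold below their medians, at 4.06-fold and 4.45-fold on the left, and both ON arrays were closer to them, at 1.74-fold and 2.50-fold. The left unique probes averaged between -0.04 and 0.16 on the 4 arrays (SD 0.23 to 0.40, n = 40) and the right ones between 0.08 and 0.17 (SD 0.31 to 0.40, n = 75). In the plot of levels by distance from the outermost probe, the order of the arrays in the rDNA differs from that in the flank.

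**Figure D1:**
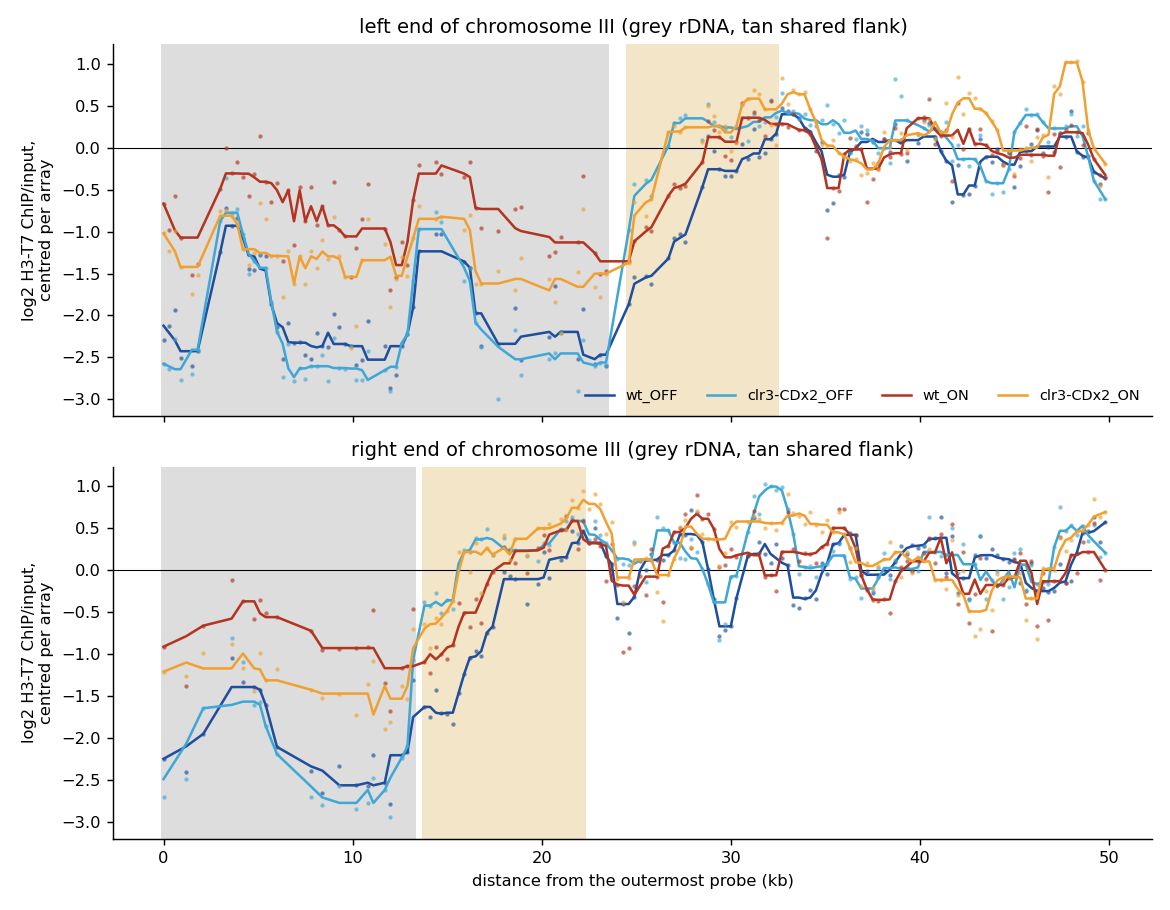
H3-T7 level (log2 ChIP over input, centred per array) of every end probe against its distance in kb from the outermost probe, with the left end above and the right end below. Points are single probes and lines running medians of 5 probes, 1 colour per array; grey marks the rDNA, where the OFF arrays lie near -2 and the ON arrays between -0.8 and -1.3, and tan marks the shared flank, where wt OFF is the lowest array.

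In the rDNA both channels were above their array medians, the input by more than the precipitated DNA. On the left rDNA, Cy3 stood at 3.12 in wt OFF, 3.04 in clr3-CDx2 OFF, 2.67 in wt ON and 2.43 in clr3-CDx2 ON above the array median. Cy5 stood at 1.11, 0.90, 1.86 and 1.10 in the same order. The input was thus brighter in both OFF arrays than in either ON array, and the precipitated DNA was brightest in wt ON.

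Probes that read the same DNA give a measure of technical spread within an array. Over 36 pairs of rDNA probes within 100 bp of the same place of the unit, the SD of a single probe was 0.18 in wt OFF, 0.16 in clr3-CDx2 OFF, 0.17 in wt ON and 0.20 in clr3-CDx2 ON. Over 13 pairs of left and right flank probes it was between 0.05 and 0.10 on the 4 arrays. The means of the left and right members of these flank pairs differed by 0.04 at most. These values describe spots and hybridisation on 1 slide and say nothing about the spread between cultures.

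**Figure D2:**
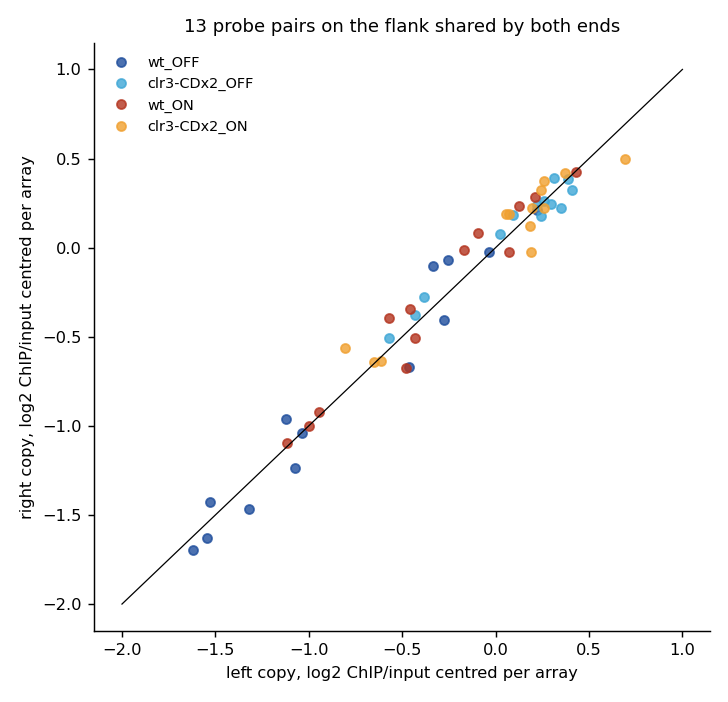
Level of the left copy (x axis) against that of the right copy (y axis), both log2 ChIP over input centred per array, for 13 probe pairs of the flank shared by both ends, with 1 colour per array and the line of equality. The pairs lie along the line from -1.7 to 0.7, and the largest difference within a pair was 0.24.

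Within the rDNA unit the transcribed genes were lower than the spacer on all 4 arrays. In wt OFF the 18S probes averaged -2.36 and the 28S probes -2.30, against -1.29 in the spacer and -2.37 in the 1300 bp upstream of 18S (n = 16, 19, 22 and 13 over both ends). The 7 probes between the rRNA genes, where the 5.8S gene lies, averaged -2.25. The spacer probe nearest the array median in clr3-CDx2 OFF reached -0.36. The step from the 35 probes of 18S and 28S up to the spacer was 1.04 in wt OFF and 1.38 in clr3-CDx2 OFF, and 0.50 in wt ON and 0.35 in clr3-CDx2 ON. The profile was therefore flatter on both ON arrays.

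The channel in which the profile was flatter differed between the genotypes. In wt the Cy5 step between genes and spacer was 1.04 in OFF and 1.05 in ON, whereas the Cy3 step went from 0.00 (0.001) to 0.55. In clr3-CDx2 the Cy5 step went from 1.38 to 0.55 and the Cy3 step from 0.01 to 0.21. Probes of different base composition respond differently, so the level of a step within a channel cannot be read. The change of a step between arrays cannot be told apart from a change in that response, which was not tested. The plot of the rDNA probes on 1 repeat unit shows these steps in all 3 quantities.

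**Figure D3:**
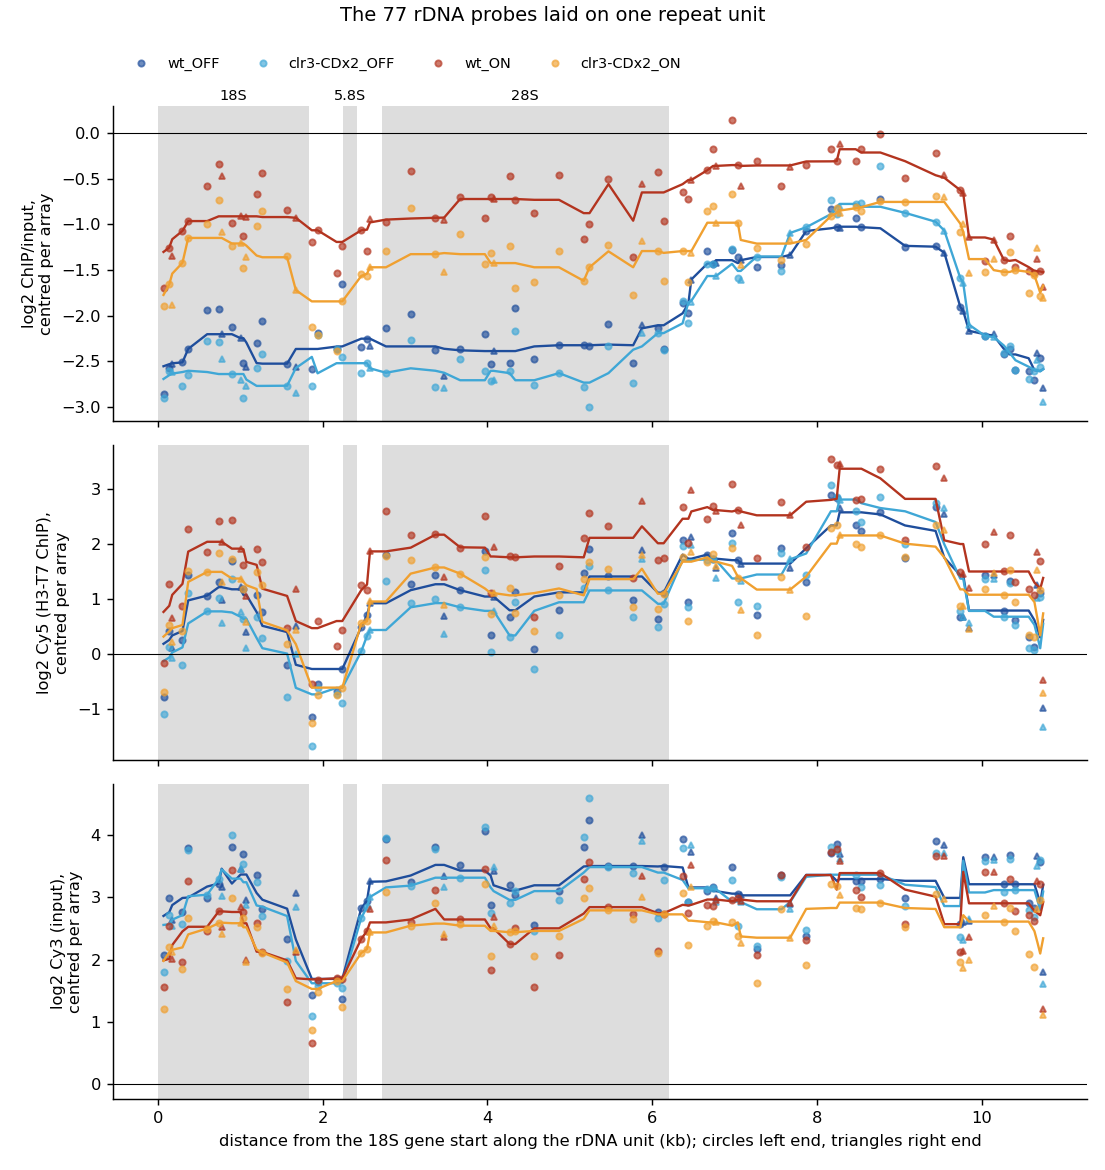
The 77 rDNA probes of both ends laid on 1 repeat unit, by distance in kb from the start of the 18S gene, with the ratio on top, Cy5 in the middle and Cy3 below (log2, centred per array). Circles are left-end and triangles right-end probes, lines are running medians of 7 probes and grey marks the rRNA genes; the OFF arrays rise from about -2.3 to -2.6 in the genes to about -1.2 to -1.3 on average in the spacer.

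Cells with TetR-Clr4 tethering ON were next compared with OFF cells of the same genotype. In wt the rDNA was higher in ON by 1.22 on the left (SD 0.34, 57 of 57 probes above 0) and by 1.25 on the right (SD 0.31, 20 of 20). That is a 2.33-fold and a 2.38-fold difference, and it held at every part of the unit, from 0.95 in the spacer to 1.52 in 28S. The precipitated DNA accounted for 0.75 on the left and the input for -0.45, so both channels moved. The parts do not sum exactly, because each channel was centred on its own median. Over the unit, the wt Cy5 part was even, between 0.73 and 0.78 in all 5 parts, and the Cy3 part was uneven, at -0.68 in 18S, -0.74 in 28S, -0.26 between them, -0.17 in the spacer and -0.35 upstream of 18S.

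In clr3-CDx2 the rDNA was also higher in ON, by 0.83 on the left (SD 0.55, 50 of 57 probes above 0) and by 0.84 on the right (SD 0.49, 18 of 20). Here the input carried most of the difference, with a Cy3 part of -0.62 on the left against a Cy5 part of 0.20. The difference varied along the unit, from 1.32 in 18S (SD 0.25) and 1.18 in 28S (SD 0.27) to 0.22 in the spacer (SD 0.32, 15 of 22 probes above 0). In the spacer Cy5 was lower in ON by a log2 difference of -0.34 and Cy3 by -0.54, so the ratio there was nearly level while both signals were lower.

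Base composition moved with the input difference. Across the 77 rDNA probes the Pearson correlation of GC content with the ON minus OFF difference in Cy3 was -0.72 in wt and -0.46 in clr3-CDx2. With the difference in Cy5 it was -0.02 in wt and 0.50 in clr3-CDx2. These are correlations across probes that share arrays, repeat units and libraries, so no p is given. The rRNA genes are the GC-rich part of the unit, with a mean of 43.7% in 18S and 46.6% in 28S against 32.3% in the spacer, and the part of base composition in the result was not tested.

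**Figure D4:**
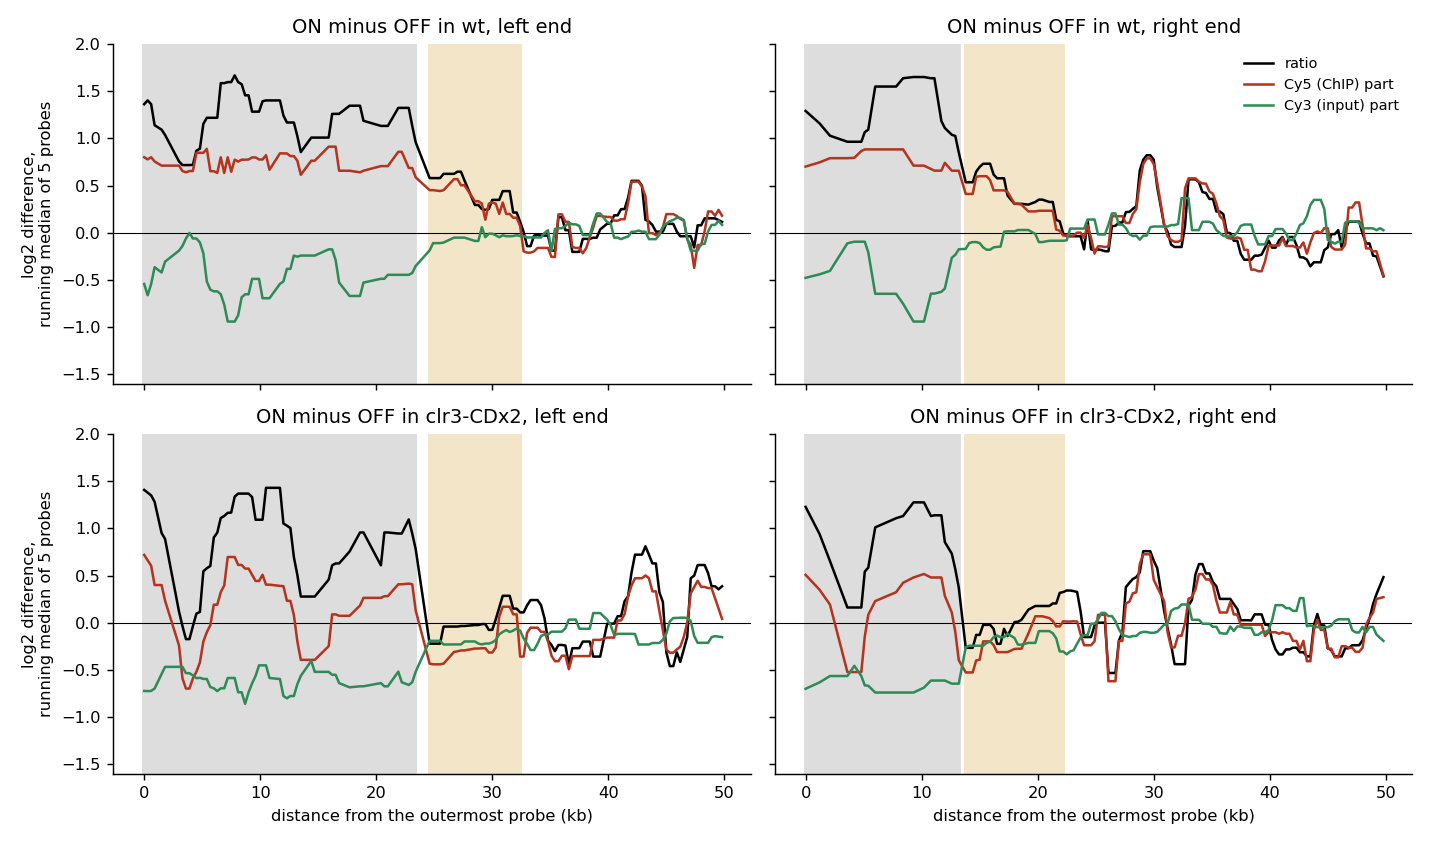
ON minus OFF difference (y axis, log2) against the distance from the outermost probe (x axis, kb), with wt above, clr3-CDx2 below, the left end on the left and the right end on the right. Lines are running medians of 5 probes of the ratio (black), Cy5 (red) and Cy3 (green), grey marks the rDNA and tan the shared flank; in the rDNA of wt the Cy5 line is even while the Cy3 line dips in the rRNA genes, and in clr3-CDx2 the Cy5 line falls below 0 in the spacer.

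Of the 272 end probes used, 96 were at least 1.5-fold higher in ON in wt and 2 were lower, where 7.79% and 4.8% of all 41020 probes were. In clr3-CDx2 there were 70 higher and 7 lower end probes, beside 5.86% and 4.72% of all probes. Of the 96 in wt, 56 lay in the left rDNA and 20 in the right, so 76 of the 77 rDNA probes passed this fold. On the left, the 3 probes with the greatest wt differences lay in 28S genes. The probe at array position 7800 stood at -2.52 in wt OFF, -2.61 in clr3-CDx2 OFF, -0.47 in wt ON and -1.24 in clr3-CDx2 ON. It was low on both OFF arrays and higher on both ON arrays, with a wt difference of 2.05 that divided into 1.09 in Cy5 and -0.94 in Cy3.

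A linear model with additive terms for tethering and genotype was fitted to all 41020 probes with limma. It has 1 residual degree of freedom per probe and takes its spread mostly from all probes (74.8 prior degrees of freedom), so its p-values measure the departure of 4 arrays from additivity and not the spread between cultures. After Benjamini-Hochberg adjustment at 0.05, limma called 73 end probes higher with tethering and 5 lower, beside 4.26% and 2.65% of all probes. Of these, 63 lay in the rDNA, with all 16 probes of 18S, all 19 of 28S and all 13 upstream of 18S, 11 of 22 in the spacer and 4 of 7 between the rRNA genes. The probe at position 7800 had an adjusted p of 5.11e-09 in limma. Without the genotype term, 32 of the 84 probes that limma called higher among all 41020 were end probes. Without that term and 1 array they were 28 of 51 (without wt OFF), 14 of 115 (without clr3-CDx2 OFF), 20 of 109 (without wt ON) and 60 of 297 (without clr3-CDx2 ON). For a single stretch, the exact two-sided permutation test of 2 ON against 2 OFF arrays cannot go below 0.333.

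Each channel was also tested alone with limma. In Cy3 it called 50 rDNA probes lower with tethering, where 0.275% of all probes were called lower, and 2 end probes higher, beside 0.822% of all. In Cy5 it called 14 end probes higher, 10 of them in the rDNA, beside 1.25% of all probes, and 0 lower, beside 0.48%. For genotype, limma called 1 end probe higher and 1 lower in Cy5, beside 0.273% and 0.00975% of all probes, and 0 and 0 in Cy3, beside 0.0244% and 0.0146%. The scanner software had removed a multiplicative trend from both channels in the OFF arrays but from Cy3 alone in the ON arrays, so this step and tethering cannot be told apart in the deposited processed signals. The median signals minus background lack both that step and the dye normalization. From these signals limma called 66 end probes higher, 59 of them in the rDNA, among 1082 of all 41020 probes. With a normexp background correction it called 0 end probes in either direction and 0 of all probes, with 4390 higher and 2535 lower at an unadjusted p of 0.05, so the calls depend on the background correction.

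Between genotypes the rDNA itself differed little in OFF and more in ON. In OFF, clr3-CDx2 minus wt was -0.13 on the left (SD 0.24, 41 of 57 probes below 0) and -0.09 on the right (SD 0.21, 15 of 20). In ON it was -0.52 on the left (SD 0.26, 57 of 57 probes below 0) and -0.51 on the right (SD 0.26, 19 of 20). The Cy5 parts in ON were -0.76 and -0.80, and the Cy3 parts were -0.24 and -0.30. The precipitated signal was thus lower in the rDNA of clr3-CDx2 than of wt in ON, by a Cy5 difference of -1.10 in the spacer, the most of the 5 parts, and of -0.54 in 18S, the least. In the additive fit limma called 0 rDNA probes higher and 1 lower for genotype after Benjamini-Hochberg adjustment, at 0.146% of all probes called lower, and the difference between the 2 states was not tested, since 4 arrays leave no degree of freedom for it.

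The flank showed the opposite order, with a higher level in clr3-CDx2 than in wt. The whole shared flank differed in OFF by 0.69 on the left and 0.82 on the right, with Cy5 parts of 0.55 and 0.65. In ON it differed by 0.25 and 0.34. The Cy5 parts in ON were -0.01 and 0.05 and the Cy3 parts -0.26 and -0.29, so the input carried that difference. The flank within 4000 bp of the rDNA was set apart after seeing where the genotype difference was large, so its values and counts are a description and support nothing about its extent. Its 8 left probes averaged -1.39 in wt OFF, -0.17 in clr3-CDx2 OFF, -0.79 in wt ON and -0.32 in clr3-CDx2 ON. Its 12 right probes averaged -1.38, -0.05, -0.74 and -0.24. Wild-type OFF was the lowest array at both ends, and clr3-CDx2 OFF the nearest to its array median.

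The genotypes differed there in OFF by 1.22 on the left (SD 0.21, 2.34-fold) and by 1.33 on the right (SD 0.11, 2.51-fold). All 8 and all 12 probes were past 1.5-fold, beside 3.35% of all probes, as the choice of the stretch favours. Cy5 carried most of it, with 0.99 and 1.04, beside Cy3 parts of -0.24 and -0.29. In ON the difference was 0.48 and 0.50, with 4 probes past 1.5-fold at each end, beside 4.19% of all probes. Cy3 (-0.33 and -0.35) carried more of this difference than Cy5 (0.15 and 0.15). The remaining flank, farther from the rDNA, differed in OFF by 0.39 on the left (SD 0.13, n = 14) and by 0.35 on the right (SD 0.21, n = 13). In OFF 0 and 1 of its probes passed 1.5-fold, beside 3.35% of all probes, and in ON it differed by 0.12 and 0.19.

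**Figure D5:**
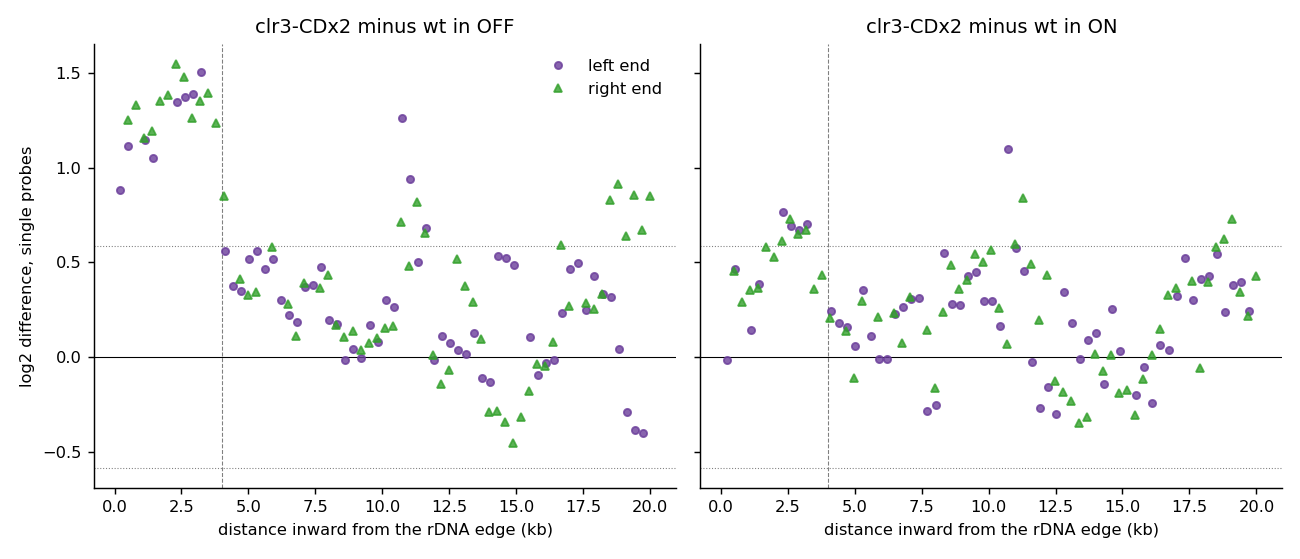
Difference between clr3-CDx2 and wt (y axis, log2 ChIP over input) of single probes against the distance inward from the inner edge of the rDNA (x axis, kb), in OFF on the left and in ON on the right. Circles are left-end and triangles right-end probes, dotted lines mark 1.5-fold and the dashed line 4000 bp; in OFF the probes within 4000 bp lie between 0.88 and 1.55, and in ON between -0.02 and 0.77.

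The level approached the array median over a shorter distance in clr3-CDx2 OFF than in wt OFF. In the first 2000 bp of the left flank, wt OFF averaged -1.64 and clr3-CDx2 OFF -0.59, and in the next 2000 bp they averaged -1.14 and 0.26. Between 4000 and 6000 bp wt OFF was at -0.22 and clr3-CDx2 OFF at 0.25. From 4000 bp inward the step means of wt OFF on the left lay between -0.30 and 0.32. The lowest was at 10000 to 12000 bp, where wt OFF averaged -0.24 on the right. The step means of clr3-CDx2 OFF were above its array median from 2000 bp inward. The edge sequences given above lie at the start of the flank and are nearly the same at both ends.

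In wt the near flank was higher in ON than in OFF by 0.59 on the left (SD 0.10) and 0.64 on the right (SD 0.21), while in clr3-CDx2 it was lower by log2 differences of -0.15 (SD 0.19) and -0.19 (SD 0.23). Every one of the 8 left and 12 right probes was above 0 in wt. The input moved little in wt here, with Cy3 parts of -0.11 and -0.12, unlike in the rDNA. Whether the genotypes differ in their response was not tested, for the same lack of degrees of freedom.

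Among all 272 end probes, 38 were at least 1.5-fold higher in clr3-CDx2 than in wt in OFF and 2 were lower, beside 3.35% and 1.16% of all probes. In ON 22 were higher and 33 lower, beside 4.19% and 3.49%. In the additive fit limma with Benjamini-Hochberg adjustment called 24 end probes higher in clr3-CDx2, where 1.44% of all probes were called, and 18 of these 24 lay in the shared flank, which has 47 probes used. The probe at array position 2437800 stood at -1.24 in wt OFF, 0.24 in clr3-CDx2 OFF, -0.51 in wt ON and 0.22 in clr3-CDx2 ON, and limma gave it an adjusted p of 0.000103. Its 2 clr3-CDx2 values lay above both wt values. The genotype calls rest on the tethering term: without it limma called 0 of all probes, with 966 higher and 279 lower at an unadjusted p of 0.05. Without that term and wt ON it called 9 end probes higher, and 0 when any of the other 3 arrays was left out. With normexp limma called 0 end probes for genotype, and 1957 of all probes were higher at an unadjusted p of 0.05.

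Among the 33 other repeat probes, limma with Benjamini-Hochberg adjustment called 3 higher in clr3-CDx2 and 3 higher with tethering. Among all probes it called 1.44% and 4.26% higher. At array position 35100 the level was -0.75 in wt OFF, 0.51 in clr3-CDx2 OFF, -1.08 in wt ON and 0.02 in clr3-CDx2 ON. Both wt arrays were low and both clr3-CDx2 arrays higher, and limma gave an adjusted p of 1.68e-05 for genotype. The others called for genotype, at 35400 and 2429100, had adjusted p of 0.0179 and 0.00594 in limma. The probe at 2429100 stood at -0.75 in wt OFF, 0.07 in clr3-CDx2 OFF, -0.93 in wt ON and -0.09 in clr3-CDx2 ON, again with both wt arrays low. Over all 33 probes, clr3-CDx2 minus wt averaged 0.24 in OFF (SD 0.35, 26 of 33 above 0) and 0.36 in ON (SD 0.26, 31 of 33), and ON minus OFF averaged 0.04 in wt (SD 0.31) and 0.16 in clr3-CDx2 (SD 0.34).

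The unique probes inward of the repeats showed no common shift. Their ON minus OFF differences averaged 0.01 in wt (SD 0.34, 58 of 115 probes above 0) and 0.03 in clr3-CDx2 (SD 0.44, 61 of 115). Genotype differences averaged 0.09 in OFF (SD 0.34) and 0.11 in ON (SD 0.33). The mean over all 41020 probes was between 0.01 and 0.04 in these 4 comparisons. In wt ON minus OFF, 8 of the 115 were at least 1.5-fold higher and 2 lower, beside 7.79% and 4.8% of all probes. In clr3-CDx2 ON minus OFF, 13 were higher and 6 lower, beside 5.86% and 4.72%. Between genotypes in OFF, 12 were higher and 0 lower, beside 3.35% and 1.16%. Between genotypes in ON, 11 were higher and 1 lower, beside 4.19% and 3.49%. Some of these lay in short runs of neighbouring probes. Such runs were sought at the ends only, so their frequency elsewhere is not known.

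A run of 5 probes at array positions 2423700 to 2424900 was higher in ON by 0.80 in wt (SD 0.10), almost all of it in Cy5 (0.77). By the placement 1 of these probes lies in the start of SPCC569.05C, annotated as a spermidine family transporter, and 4 lie before it, in the non-coding RNA gene SPNCRNA.1297. Its probe at 2424300 stood at -0.78 in wt OFF, -0.83 in clr3-CDx2 OFF, 0.04 in wt ON and 0.05 in clr3-CDx2 ON. Both OFF arrays were low there and both ON arrays near the median, in either genotype. A run of 6 probes at 2420400 to 2421900, of which 3 lie in the uncharacterized gene SPCC569.06 and 3 outside it, was higher in clr3-CDx2 than in wt in OFF by 0.79 (SD 0.11).

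Of 16 protein-coding genes with at least 3 probes at the ends, 3 passed 1.5-fold in some comparison with at least 80% of their probes on the same side. In ON minus OFF 0 were higher in wt, beside 2.26% of all 4610 genes, and 1 was higher in clr3-CDx2, beside 1.69%. In clr3-CDx2 minus wt 2 were higher in OFF, beside 0.607%, and 1 in ON, beside 0.868%, and 0 end genes were lower in any of the 4, beside 1.56%, 0.824%, 0.217% and 0.564% of all genes in the same order. The outermost right gene, SPCC569.01C (III 2434691 to 2436530, plus strand), an uncharacterized protein in the shared flank, averaged -0.69 in wt OFF, 0.36 in clr3-CDx2 OFF, -0.18 in wt ON and 0.18 in clr3-CDx2 ON over 5 probes. It was lowest on the wt OFF array and differed between genotypes there by 1.05.

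The gene hsp3101 (III 47325 to 48501, minus strand), which encodes a glyoxalase III, lies near the inner limit of the left end. Its 4 probes averaged 0.18 in wt OFF, 0.24 in clr3-CDx2 OFF, 0.11 in wt ON and 0.93 in clr3-CDx2 ON. It was high on 1 array of the 4, with differences of 0.69 from OFF and 0.82 from wt. The spliceosome-associated factor gene cwf18 (III 2404643 to 2405800, minus strand) averaged -0.11 in wt OFF, 0.51 in clr3-CDx2 OFF, 0.07 in wt ON and 0.25 in clr3-CDx2 ON over 4 probes, a genotype difference of 0.62 in OFF.

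The outermost left gene, SPCP20C8.01C, an uncharacterized protein in the shared flank, averaged -0.12 in wt OFF, 0.31 in clr3-CDx2 OFF, 0.12 in wt ON and 0.32 in clr3-CDx2 ON over 3 probes. Like its counterpart on the right it was lowest in wt OFF. The highest gene level at the left end was that of SPCP20C8.02C in wt ON (0.44), SPCP20C8.01C in clr3-CDx2 OFF and hsp3101 on the other arrays, and at the right end that of SPCC569.06 in clr3-CDx2 OFF (0.83) and SPCC569.03 on the others (0.42 to 0.83). The lowest on the left were SPCP20C8.01C in wt OFF, the transporter gene nic1 in clr3-CDx2 OFF (-0.01) and SPCC1884.01 in both ON arrays (-0.22 and -0.14). On the right they were SPCC569.01C in wt OFF, the ankyrin repeat gene dhm1 in clr3-CDx2 OFF (-0.16) and wt ON (-0.34), and nsa2, a ribosome biogenesis gene, in clr3-CDx2 ON (-0.35).

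Genes for RNA polymerase I, its factors and rDNA fork barrier proteins lie elsewhere in the genome and were read as the other members of the rDNA pathway. The list held 20 names, and 17 genes with at least 3 probes were measured. The name rpa1 was left out because the annotation gives it only as an older name of another gene, and nop1 and fib1 name the same gene. In clr3-CDx2 ON minus OFF 1 was higher, beside 1.69% of all genes, and 0 were lower, beside 0.824%. The higher gene was hmo1 (0.59), which encodes an rDNA-bound HMG-box protein. The list's median was 0.00 beside 0.01 (0.015) over all genes. In wt ON minus OFF and between genotypes in OFF and ON, 0 of 17 passed 1.5-fold in either direction. Of all genes, 2.26%, 0.607% and 0.868% were higher and 1.56%, 0.217% and 0.564% lower. The list medians in these 3 comparisons were 0.02 (0.025), 0.06 and -0.05.

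The corresponding repeat probes at the ends of the other chromosomes did not show the rDNA's difference. In wt the 191 f or m probes at the ends of I averaged -0.22 in ON minus OFF (SD 0.56) and the 102 at the ends of II averaged -0.41 (SD 0.58), against 0.83 and 0.60 for those at the left and right ends of III. The 354 f or m probes of III away from its ends averaged 0.12 (SD 0.43). In clr3-CDx2 minus wt in OFF, the whole shared flank of III averaged 0.69 on the left (SD 0.44) and 0.82 on the right (SD 0.53). Higher levels in clr3-CDx2 OFF were not particular to this flank, since the 166 unique probes at the ends of II averaged 0.70 (SD 0.54). The f or m probes at the ends of I and II averaged 0.20 and 0.375, and the unique probes at the ends of I 0.035. The near flank, at 1.22 and 1.33, was chosen for its large difference. With 1 array per group these contrasts between regions are descriptions.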

How the data were processed

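DNA from 4 cultures, 1 per group, was hybridised to tiling arrays on 1 slide. Per the file headers, the deposited scanner files hold, for each spot, Cy5 (precipitate) and Cy3 (input) intensities, as background-corrected, dye-normalized processed signals and as median signals, and the authors' log10 ratio, made with Agilent Feature Extraction 12.0.3.1. The deposited log2 values of the series were set against these. Here log2 of processed Cy5 over Cy3 was centred on each array's median. Control spots and 531 probes flagged as outliers were left out, which leaves 41020. Mean signals were not used here, so normexp and plain background subtraction started from median signals. A probe was called at 1.5-fold, and an additive model of tethering and genotype was fitted with limma 3.58.1 in R 4.3.3, with Benjamini-Hochberg adjustment over all 41020 probes, and tested on simulated data. Probes were placed on the assembly by matching their Cy3 signal to GC content, and copies of the placed tiles were sought with blastn 2.17.0. Named probes were the 3 highest and 3 lowest per end, class and comparison, and named genes the outermost, highest and lowest of each end and those past 1.5-fold whose probes lay to 80% or more on a common side. The division of repeat probes into rDNA, shared flank, other repeats and parts of the unit, and the stretch within 4000 bp of the rDNA, were chosen after seeing the data. Members and lists were chosen with earlier results of these data known. Each group had 1 array, which limits the precision.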

Additional observations from a re-analysis of the deposited data

Results flagged for a closer look

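Several stretches moved in opposite directions in the 2 genotypes or states, and none of these differences was tested, because 4 arrays leave no residual degree of freedom for the interaction. In ON minus OFF, the left shared flank was at 0.41 (0.411) in wt and -0.04 (-0.035) in clr3-CDx2, and the right one at 0.46 (0.458) and -0.02 (-0.021). Within 4000 bp of the rDNA the left flank was at 0.595 in wt and -0.155 in clr3-CDx2, and the right one at 0.635 and -0.190. The right unique probes were at -0.005 and 0.009, both close to 0.

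In clr3-CDx2 minus wt, the left f or m probes as a whole were at 0.128 in OFF and -0.183 in ON. The rDNA spacer was at 0.064 in OFF and -0.668 in ON, and the stretch upstream of 18S at 0.030 in OFF and -0.184 in ON.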

How the results depend on the processing

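Of 448 values of stretches under alternatives, 422 moved by less than 1 SD, and 0 of those past 1.5-fold changed sign. With normexp, rDNA levels in wt OFF, clr3-CDx2 OFF and clr3-CDx2 ON were -2.697, -2.869 and -2.052 on the left and -2.705, -2.832 and -2.062 on the right, and the near flank in wt OFF and wt ON was -2.408 and -1.567 on the left and -2.327 and -1.460 on the right. The rDNA clr3-CDx2 minus wt in ON became -0.897 and -0.892. The left flank became 0.653 in wt ON minus OFF and 1.172 in clr3-CDx2 minus wt OFF. The near flank became, on the left, 0.841, 2.007 and 0.890 for wt ON minus OFF and for the genotypes in OFF and ON, and on the right 0.867, 2.138 and 0.851, with -0.420 for clr3-CDx2 ON minus OFF. With equal MAD, wt ON minus OFF was 1.603 and 1.641 in the rDNA and 0.880 and 0.913 in the near flank, and the right near flank differed between genotypes in OFF by 1.529. The spacer in clr3-CDx2 ON minus OFF went from 0.22 to -0.09 with normexp, and the right rDNA between genotypes in OFF from -0.093 to 0.006 with equal MAD.

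Counts of end probes past 1.5-fold, as higher and lower for the 4 comparisons in the order of the report, changed as follows. With normexp 15 were lower in wt, 26 lower in clr3-CDx2, 62 higher and 22 lower between genotypes in OFF and 63 and 66 in ON. Without detrending and dye normalization 4 were lower in wt and 0 lower between genotypes in OFF, and with equal MAD 4 were lower in wt. Within 25000 bp, where no unique probe remains and so no value exists for them, 0 were lower in wt, 1 lower in clr3-CDx2, and 18 and 6 higher between genotypes in OFF and ON. At 2-fold the counts were 60 and 0, 36 and 2, 20 and 0, and 1 and 1. With a running median 0 were lower in wt, in clr3-CDx2 and between genotypes in OFF, and 14 were higher in ON. The share of all probes past the fold was not counted under these alternatives. The changed counts therefore cannot be read as particular to the ends.

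In limma, tethering without the genotype term gave 84 higher and 31 lower probes, 32 of the higher at the ends, and genotype alone gave 0, 0 and 0 (966 and 279 at an unadjusted p of 0.05). Without the other term, leaving out 1 array gave 51 to 297 higher and 19 to 172 lower for tethering, with 14 to 60 end probes higher (28 without wt OFF, 14 without clr3-CDx2 OFF, 20 without wt ON, 60 without clr3-CDx2 ON), and 2 to 177 and 2 to 9 for genotype, with 0 to 9 at the ends; the lone array is assumed to vary like the others. Normexp gave 0, 0 and 0 for tethering and 0, 2 and 0 for genotype. Without detrending and dye normalization limma gave 1082 and 622 for tethering and 33 lower for genotype. Cy5 alone gave 513, 197 and 14 for tethering and 112, 4 and 1 for genotype, and Cy3 alone 337, 113 and 2 and 10, 6 and 0. The causes were not tested. No paired analysis was possible because each group is 1 array, beyond the additive fit itself, whose genotype term compares ON with OFF within each genotype.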
